A study of Mus musculus with 6 samples.

Results

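The cytosolic ribosomal protein genes are the genes for the proteins that build both subunits of the cytosolic ribosome, named *Rpl* for the large and *Rps* for the small subunit. Members were taken by name: all protein-coding genes whose symbol starts with *Rpl* or *Rps* followed by a digit, with *Rpsa*, *Rplp0*, *Rplp1* and *Rplp2* and without the *Rps6k* kinases. This gave 94 of the 55487 genes in the count table. Of these, 77 are the core ribosomal protein genes (46 of the large and 31 of the small subunit), 7 are paralogues of a core gene (*Rpl3l*, *Rpl7l1*, *Rpl10l*, *Rpl22l1*, *Rpl36al*, *Rpl39l* and *Rps27l*), 8 carry the name of a pseudogene or retrogene, and 2 make other products (*Rps19bp1* and *Rps23rg1*). RNA sequencing was performed on cartilaginous tissue of the knee joint from mice at postnatal day 6, with 3 *Hbb*-cKO and 3 WT libraries. *Hbb*-cKO stands for conditional deletion of *Hbb*, the β-globin gene, in chondrocytes, and WT for wild-type mice. The study gives the name *Hbb*-cKO to floxed *Hbb* mice that carry *Col2a1*-CreERT2, a Cre that tamoxifen switches on in chondrocytes. The tamoxifen schedule behind these libraries, and whether a library is of a single mouse or of pooled mice, are not stated in the labels or methods, so that p-values measure the spread between libraries only.

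A cytosolic ribosome holds a single copy of almost every ribosomal protein, and cells therefore make these proteins in matched amounts. Their mRNAs are short and very abundant, and many start with a C followed by a run of pyrimidines, the terminal oligopyrimidine (TOP) tract, through which mTOR and LARP1 control their translation. Mammalian genomes also carry many processed pseudogenes of these genes, which are copies of the spliced mRNA. Several members are known for their part in the skeleton: loss of *Rpl38* underlies the Tail short mouse, *Rpl24* is mutated in Belly spot and tail mice, mice without *Rpl29* are small, and variants of *RPL13* cause a skeletal dysplasia in humans.

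The 6 libraries held 16544800 to 20969914 counts. *Hbb-bs* and *Hbb-bt*, the targeted β-globin genes, together took 0.424%, 0.544% and 0.507% of counts in the *Hbb*-cKO libraries and 1.70%, 1.21% and 0.686% in the WT libraries. Erythroid genes that were not targeted were lower by similar amounts. The log2 fold change (*Hbb*-cKO over WT, ± SE) was -1.28 ± 0.30 for *Hbb-bs*, -1.31 ± 0.38 for the α-globin gene *Hba-a1* and -1.60 ± 0.33 for *Alas2*. The part of the deletion in the lower β-globin counts was not tested. The chondrocyte markers *Col2a1*, *Acan*, *Sox9*, *Matn1*, *Comp*, *Col9a1* and *Hapln1* were present in every library. Their sum was 14800, 50330 and 36240 CPM in *Hbb*-cKO and 34130, 37650 and 29080 CPM in WT (CPM, counts scaled to a common normalised library size). *Hbb*-cKO replicate 1 was thus far below every other library in this sum. *Xist* and Y-linked transcripts were not balanced between the groups: WT replicates 1 and 2 held no count of *Ddx3y*, *Eif2s3y*, *Kdm5d* and *Uty*, and the other 4 libraries held 57.4 to 145.7 CPM. *Xist* had 287, 0.301 and 381 CPM in the *Hbb*-cKO libraries and 625, 531 and 157 CPM in the WT libraries. *Hbb*-cKO replicates 1 and 3 and WT replicate 3 thus held both kinds of transcript, as a mix of male and female tissue would give. In edgeR's quasi-likelihood test 18 of the 17175 genes tested differed between *Hbb*-cKO and WT (adjusted p under 0.05), and DESeq2 called 249.

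The sequences of the members decide how their counts can be read, because some processed copies are near-identical to the genes, while others share less of the sequence. By sequence, 625 rows, nearly all of processed pseudogenes, matched a ribosomal protein gene in at least 25% of their 31-base windows, 612 of them a core gene, and 559 of the 625 held at least 1 count. *Rpl38* (ENSMUSG00000057322, GRCm38 chromosome 11, 114668524 to 114672331, plus strand) and its copy *Rpl38-ps2* (chromosome 6, 140746960 to 140747172, minus strand) are identical over all 213 bases of the copy, across the 3 exon junctions of the gene. A window of 30 bases around 1 of these junctions, in the coding part, is shown here, with the base on each side of the junction in capitals, because a read of these letters fits both places equally.
Rpl38: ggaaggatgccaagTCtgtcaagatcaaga
Rpl38-ps2: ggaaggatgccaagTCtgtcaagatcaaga
*Rpl29* (ENSMUSG00000048758, chromosome 9, 106429454 to 106431568, plus strand) differs from its copy *Gm13841* (chromosome 5, 115801677 to 115802159, minus strand) at 3 of 483 aligned bases, C203A, C431T and T554C, counted from 1 at the 5′ end of the *Rpl29* transcript with the gene's base first. *Gm8210* (chromosome 1, 43189156 to 43189638, plus strand) carries the same 3 substitutions. The window around one of them is shown with the differing base in capitals, since the libraries low on the gene's row were among those high on the copy's row.
Rpl29: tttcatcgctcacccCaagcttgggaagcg
Gm13841: tttcatcgctcacccTaagcttgggaagcg
*Rpsa* (ENSMUSG00000032518, chromosome 9, 120127689 to 120132369, plus strand) and *Rpsa-ps10* (chromosome 3, 150072658 to 150073542, minus strand) differ at 6 of 885 aligned bases, C520G among them, counted likewise.
Rpsa: ccagatccaagcagcCttcagggagccacg
Rpsa-ps10: ccagatccaagcagcGttcagggagccacg

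Much of the counts of the family lay on such copies. The rows of the core genes themselves held 44.0 ± 0.357% of the counts of core genes and copies together in *Hbb*-cKO and 44.5 ± 0.273% in WT (mean ± s.e.m., n = 3 each). The share on the own row had a median of 33.5% over the core genes, was under 50% in 46 of 77, under 5% in 13 and over 95% in 9. *Rps27*, a zinc-finger protein of the small subunit, had the lowest share at 0.783%: its own row held 49, 57 and 77 counts in the *Hbb*-cKO libraries and 70, 89 and 78 in the WT libraries, against 7681, 8083 and 8413 counts in *Hbb*-cKO and 9166, 12015 and 7753 in WT on *Rps27rt*, a retrogene identical to it over 341 aligned bases and itself a member. Values are therefore given for a gene's own row and, in a second fit chosen after seeing the data, with the counts of its copies added (copies summed). The sources used here do not say how the authors' counting treated reads with several places to map.

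Per length of transcript the core genes were closer to each other once copies were summed. The level averaged over the 6 libraries had a median of 729 CPM per kb with copies summed, and 65 of the 77 genes lay within 2-fold of it. On own rows the median was 185 CPM per kb and 27 of 77 lay within 2-fold. The ratio of the highest to the lowest gene was 37.5 with copies summed and 424 on own rows. *Rplp1*, a protein of the stalk that recruits translation factors to the ribosome, had the highest level on both scales, 2733 CPM per kb on its own row and 3002 with copies summed. On own rows *Rps15*, *Rps27rt*, *Rpl41* and *Rps21* followed at 1422, 1322, 1305 and 985 CPM per kb. With copies summed, *Rps15a* was lowest at 80.1 CPM per kb, on an annotated transcript of 5179 bases, so that the order of single genes depends on the transcript chosen for the length.

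**Figure D1:**
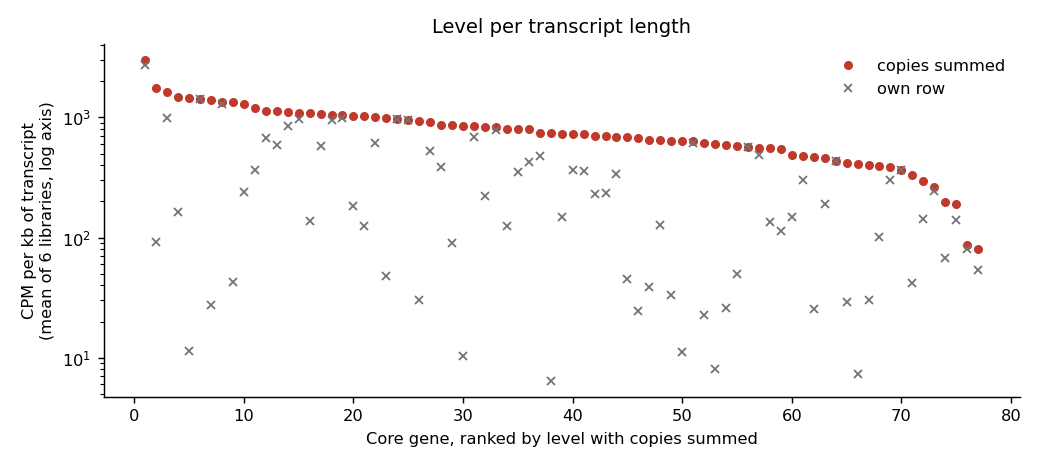
Level per transcript length of the 77 core genes (CPM per kb of the principal GENCODE M21 transcript, mean of all 6 libraries, log axis), ranked by the level with copies summed. Red circles, copies summed, with 65 of 77 genes within 2-fold of the median of 729; grey crosses, own rows, which scatter down to values 424 times below the highest.

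In knee cartilage of *Hbb*-cKO mice the core ribosomal protein mRNAs were lower on average than in WT, by a small amount and almost all together, and the size of this difference rested on 1 WT library. The 94 members took 2.38%, 2.21% and 2.25% of all counts in the *Hbb*-cKO libraries and 2.71%, 3.41% and 2.28% in the WT libraries, a difference of -18.7% between the means, which was -8.72% without WT replicate 2 and -25.6% without WT replicate 3. The *Hbb*-cKO libraries lay close together, and WT replicate 3 lay among them, so that the groups overlapped. With copies summed the core genes took 4.98%, 4.74% and 4.76% of counts in *Hbb*-cKO and 5.62%, 7.19% and 4.79% in WT (difference -17.7%). WT replicate 2 was the highest library for 77 of 77 core genes with copies summed, and for 76 on own rows. As bulk tissue was sequenced, fewer cells rich in these mRNAs and less of them per cell cannot be told apart.

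**Figure D2:**
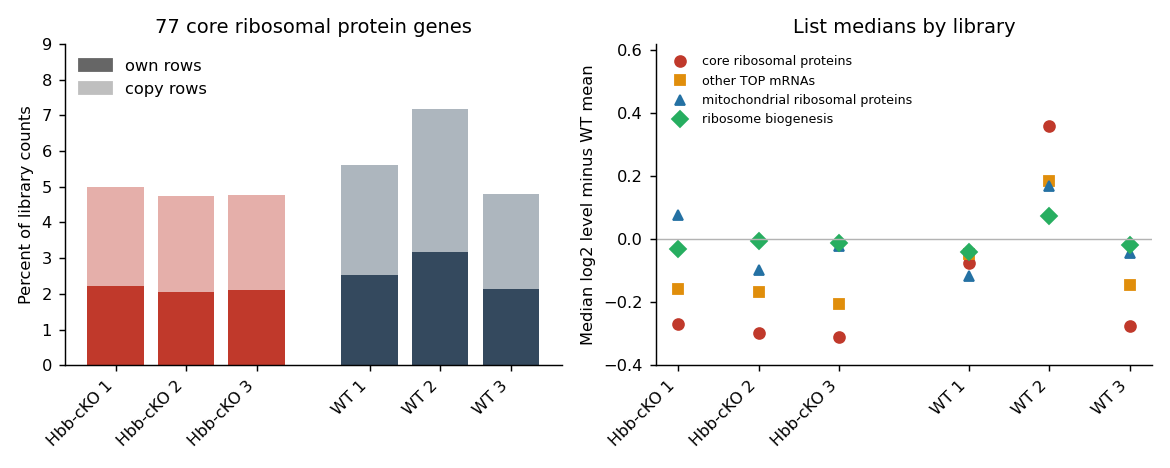
Left, percent of library counts on the rows of the 77 core genes (dark) and on their copies (pale) in the 3 *Hbb*-cKO (red) and 3 WT (blue-grey) libraries; the 2 parts reach 4.74% to 4.98% in *Hbb*-cKO and 4.79% to 7.19% in WT. Right, median over each list of the log2 level minus the mean log2 level in WT, by library; the core genes stand at -0.27 to -0.31 in the *Hbb*-cKO libraries and at -0.08, 0.36 and -0.28 in the WT libraries.

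The log2 fold change (*Hbb*-cKO over WT) had a median of -0.29 over the 91 members tested, -0.30 over the 77 core genes and -0.31 over the core genes with copies summed, beside -0.01 over all 17175 genes tested. It was negative in 76 of 77 core genes on either scale, against 52.5% of all genes tested, but the core genes are not independent of each other. *Rps23* at 0.17 was the exception on own rows and *Rpl29* at 0.22 with copies summed. The subunits had similar values: with copies summed the median was -0.30 for the 46 large-subunit genes and -0.33 for the 31 small-subunit genes. Every *Hbb*-cKO library lay below every WT library in 24 core genes on own rows and 27 with copies summed, while 8.96% and 8.9% of all genes tested did so on the 2 scales. Without WT replicate 2 the median of the core genes was -0.11 with copies summed and 71 of 77 were negative (50.4% of all genes), whereas without WT replicate 3 it was -0.44 and 76 of 77 were negative (50.3%).

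No member passed the threshold in edgeR on own rows (0.105% of all genes tested did, 0.0699% as lower) or with copies summed (0.107%). Adjusted p of the core genes in edgeR ran from 0.0531 to 0.985 on own rows and from 0.419 to 0.921 with copies summed, with a standard error of 0.11 to 0.44 on the log2 scale. At an unadjusted p under 0.05, 9 core genes were lower and 0 higher on own rows (5.22% of all genes tested were lower), and 8 lower and 0 higher with copies summed (5.29%). With copies summed the number lower was 0 without WT replicate 2 (5.82% of all genes) and 64 of 77 without WT replicate 3 (6.23%). DESeq2 called 1 member lower, *Rpl38*, and 0 higher (1.45% of all genes were called, 0.705% as lower). Among the genes with an unadjusted p under 0.05 with copies summed was *Rps18*, picked after its values were seen, at -0.53 ± 0.20 (log2 fold change ± SE, as in what follows). On its own row *Rps18* stood at -0.40 ± 0.14, and its copies include *Rps18-ps6*, a row at 0 in *Hbb*-cKO replicate 3.

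**Figure D3:**
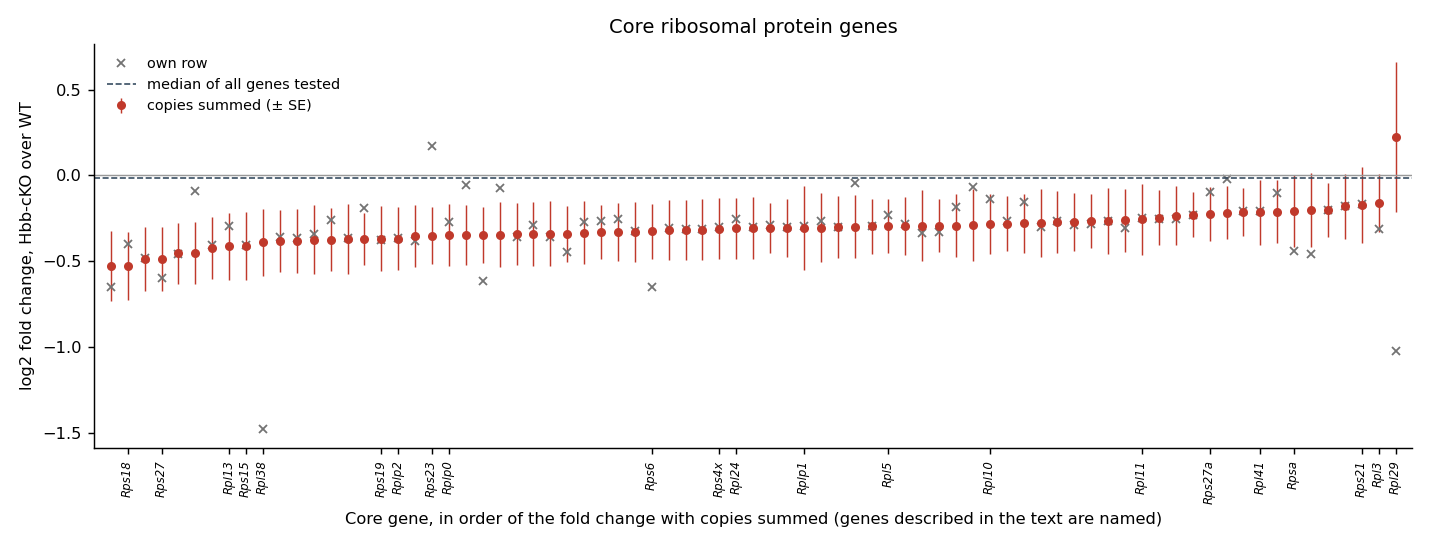
Log2 fold change, *Hbb*-cKO over WT, of the 77 core genes with copies summed (red circles, ± SE of the edgeR fit) and on the own row (grey crosses), in order of the first, with the genes described by name labelled; the dashed line is the median of all genes tested. With copies summed 76 genes lie between -0.53 and -0.16 and *Rpl29* at 0.22, while on own rows *Rpl38* reaches -1.48 and *Rpl29* -1.02.

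Among the small-subunit proteins, *Rps6*, the substrate of the S6 kinases, had 92.4, 79.8 and 84.0 CPM in the *Hbb*-cKO libraries and 119, 172 and 111 CPM in the WT libraries on its own row. The groups did not overlap, and the log2 fold change was -0.65 ± 0.18 with an adjusted p of 0.281 in edgeR. With copies summed, of which the own row was 12.1%, it was -0.33 ± 0.16 (adjusted p = 0.543). *Rps27* with copies summed had 439, 408 and 400.5 CPM in *Hbb*-cKO and 554, 741 and 452 CPM in WT, without overlap, at -0.49 ± 0.19 (adjusted p = 0.433). *Rps19*, the gene most often mutated in Diamond-Blackfan anaemia, had 359, 344 and 362 CPM in *Hbb*-cKO and 412, 599 and 372 CPM in WT on its own row, which did not overlap, at -0.38 ± 0.19 (adjusted p = 0.546). For each of these genes WT replicate 2 was the highest library and WT replicate 3 stood nearest to *Hbb*-cKO. *Rps15* (-0.41 ± 0.20), *Rps4x* (-0.30 ± 0.18), *Rps21* (-0.17 ± 0.22) and *Rps27a*, made as a fusion with ubiquitin (-0.10 ± 0.14), gave adjusted p of 0.539 to 0.865 in edgeR on own rows. The own row of *Rps27a* held 5.46% of its counts, and with copies summed it stood at -0.23 ± 0.16 (adjusted p = 0.696 in edgeR). *Rps23*, a protein of the decoding centre, had 7.56, 7.87 and 6.56 CPM in *Hbb*-cKO and 6.29, 7.97 and 5.25 CPM in WT on an own row with 1.84% of its counts, and -0.35 ± 0.17 with copies summed (adjusted p = 0.538), where the groups did not overlap.

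Among the large-subunit proteins, the 3 proteins of the stalk had similar values. *Rplp0*, its base, had 1291, 1149 and 1173 CPM in *Hbb*-cKO and 1388, 1945 and 1034 CPM in WT on its own row, and *Rplp1* had 1333, 1214 and 1126 CPM in *Hbb*-cKO and 1479, 2027 and 1005 CPM in WT. On these own rows both ranges overlapped, WT replicate 3 being below every *Hbb*-cKO library and WT replicate 2 far above. With copies summed *Rplp0* had 1992 CPM in WT replicate 3, inside the *Hbb*-cKO range of 1865 to 2074.5 CPM. Log2 fold changes on own rows were -0.27 ± 0.23 for *Rplp0*, -0.30 ± 0.24 for *Rplp1* and -0.36 ± 0.18 for *Rplp2* (adjusted p = 0.740, 0.739 and 0.550). *Rpl5* and *Rpl11*, which join the ribosome together with 5S rRNA and bind MDM2 when free, gave -0.30 ± 0.16 and -0.26 ± 0.21 with copies summed (adjusted p = 0.579 and 0.745). *Rpl10*, among the last proteins to join the large subunit, gave -0.29 ± 0.18, and *Rpl13* gave -0.41 ± 0.19 with groups that did not overlap (adjusted p = 0.641 and 0.534, copies summed). *Rpl24* gave -0.31 ± 0.18, *Rpl3*, a protein near the peptidyl transferase centre, -0.16 ± 0.17, and *Rpl41* -0.22 ± 0.19 (adjusted p = 0.612, 0.818 and 0.774, copies summed). None of these values passed the threshold, and each had the sign of the core median.

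*Rpl38* and *Rpl29* had the lowest fold changes of the core genes on own rows, and in both the most abundant copy did not follow the gene. *Rpl38* had 805, 991 and 1524 counts in the *Hbb*-cKO libraries and 2723, 2801 and 2327 counts in the WT libraries, which is 45.7, 49.7 and 71.9 CPM against 163, 170 and 134 CPM. The groups were far apart, with a log2 fold change of -1.48 ± 0.19, an adjusted p of 0.0531 in edgeR and of 5.67e-09 in DESeq2. *Rpl38-ps2*, with the identical stretch printed above, had 178, 164 and 166 CPM in *Hbb*-cKO and 156, 243 and 124 CPM in WT. *Gm8129*, a further copy, had 50.2, 47.2 and 38.2 CPM in *Hbb*-cKO and 21.4, 50.9 and 17.8 CPM in WT. With copies summed *Rpl38* had 285, 269 and 282 CPM in *Hbb*-cKO and 344, 477 and 276 CPM in WT, with WT replicate 3 inside the *Hbb*-cKO range, and a log2 fold change of -0.39 ± 0.19 (adjusted p = 0.553), close to that of the other core genes. The part of the copies in the lower count on its own row was not tested.

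*Rpl29* was lower in every *Hbb*-cKO library than in every WT library on its own row, while its 2 most abundant copies overlapped between the groups. The own row had 31.4, 96.5 and 35.8 CPM in *Hbb*-cKO and 122, 102 and 109 CPM in WT, and the copy *Gm10709*, which had similar proportions between libraries, had 9.77, 34.8 and 10.9 CPM in *Hbb*-cKO and 47.6, 34.1 and 40.6 CPM in WT. *Gm13841* had 269, 114 and 258 CPM in *Hbb*-cKO and 37.8, 297 and 64.2 CPM in WT, and *Gm8210* had 130, 44.5 and 124 CPM in *Hbb*-cKO and 0.599, 141 and 18.1 CPM in WT. Thus *Hbb*-cKO replicates 1 and 3 were low on the gene and high on *Gm13841* and *Gm8210*, WT replicates 1 and 3 the opposite, *Hbb*-cKO replicate 2 lay between, and WT replicate 2 was high on both. The log2 fold change was -1.02 ± 0.43 on the own row (adjusted p = 0.499 in edgeR) and 0.22 ± 0.44 with copies summed (adjusted p = 0.921). Without *Hbb*-cKO replicate 2 the own row reached -1.72 ± 0.15 with an adjusted p of 0.0398.

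*Rpsa*, the small-subunit protein also known as a laminin receptor, had 960, 418 and 720 CPM in *Hbb*-cKO and 1053, 1128 and 669 CPM in WT on its own row, while *Rpsa-ps10* had 360, 693 and 533 CPM in *Hbb*-cKO and 399, 556 and 332 CPM in WT. The library lowest on the gene, *Hbb*-cKO replicate 2, was the highest on the copy, and the groups overlapped on both. The log2 fold change was -0.44 ± 0.32 on the own row and -0.21 ± 0.21 with copies summed (adjusted p = 0.701 and 0.810 in edgeR).

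**Figure D4:**
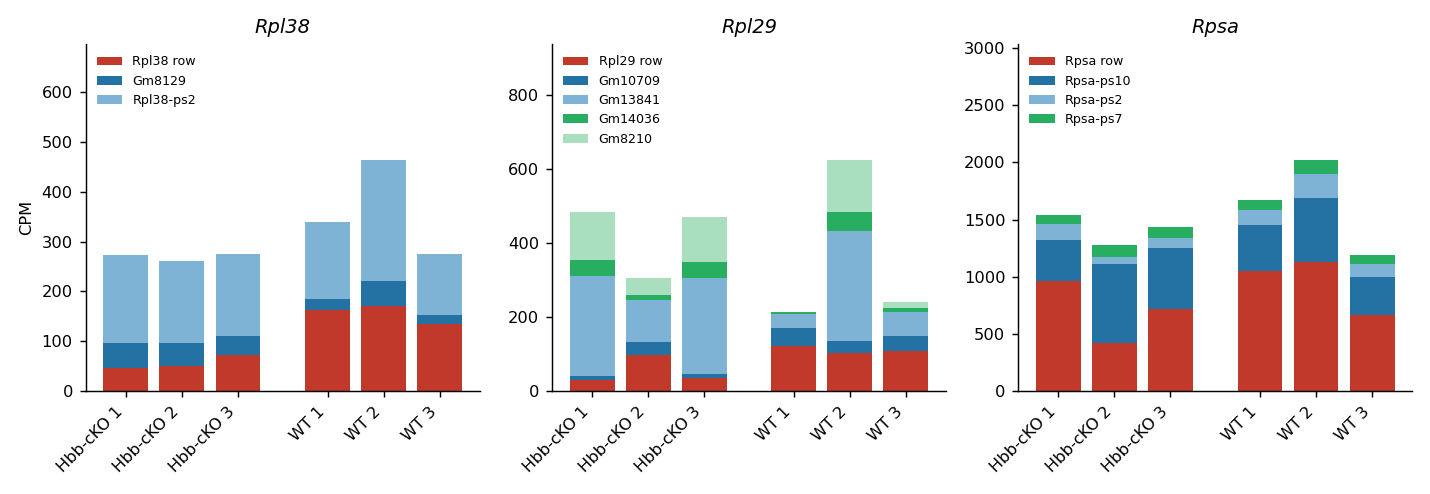
CPM on the rows of *Rpl38*, *Rpl29* and *Rpsa* (red) and of their most abundant copies (blue and green, stacked) in the 3 *Hbb*-cKO and 3 WT libraries. The red part of *Rpl38* is 45.7 to 71.9 CPM in *Hbb*-cKO and 134 to 170 CPM in WT, while that of *Rpl29* and *Rpsa* changes from library to library against the copies.

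The median log2 fold change of the paralogues was 0.05 on own rows, beside -0.30 for the core genes, and their difference was tested only within pairs. None was called in edgeR, and the 6 with enough counts had log2 fold changes of 0.17 (*Rpl22l1*), 0.13 (*Rpl7l1*), 0.12 (*Rpl39l*), -0.02 (*Rpl3l*), -0.04 (*Rpl36al*) and -0.10 (*Rps27l*) on own rows, with adjusted p of 0.775 to 0.989. *Rpl10l*, a paralogue of the male germ line, had 0 counts in all libraries, and the markers of spermatogenesis *Tnp1*, *Prm1*, *Dazl* and *Ddx4* had at most 0, 2, 8 and 23 counts in a library, too few to pass the filter. To compare each paralogue with its core gene within a library, its share of the counts of the pair was taken, copies summed. *Rps27l* took 17.4%, 17.6% and 18.2% of the pair in *Hbb*-cKO and 13.8%, 14.6% and 14.0% in WT, without overlap. *Rpl22l1* took 42.3%, 38.2% and 38.2% of its pair with *Rpl22*, an RNA-binding protein needed for T cell development, in *Hbb*-cKO and 34.8%, 34.6% and 31.3% in WT, also without overlap. *Rpl36al* took 32.7 ± 0.527% in *Hbb*-cKO and 27.7 ± 0.448% in WT, *Rpl7l1* took 12.8 ± 0.875% in *Hbb*-cKO and 10.2 ± 0.262% in WT, and *Rpl39l* took 4.89 ± 0.358% in *Hbb*-cKO and 3.81 ± 0.317% in WT. In these 5 of 6 pairs the share was higher in every *Hbb*-cKO library than in every WT library, WT replicate 2 included. By their own level 0 of the 6 paralogues tested were, beside 8.7% of all genes tested, and no such figure over all genes was computed for shares. Each of the 5 pairs gave p = 0.1 in an exact two-sided permutation test, the smallest that 3 libraries against 3 allow. After Benjamini-Hochberg adjustment over the 6 pairs this was 0.12, so that none could pass 0.05. A share also moves when the core gene alone differs. *Rpl3l*, the paralogue of striated muscle, took 9.90%, 9.26% and 7.68% of its pair with *Rpl3* in *Hbb*-cKO and 6.44%, 6.56% and 12.4% in WT (exact permutation p = 0.8). Its level was highest in WT replicate 3, at 108 CPM, where the summed level of the 9 skeletal muscle markers was also highest, at 46580 CPM against 23490 to 32630 CPM in the other 5 libraries. Those 5 did not share an order: the muscle sum was lowest in *Hbb*-cKO replicate 2, with *Rpl3l* at 84.6 CPM. *Rpl3l* was lowest in WT replicate 1, at 60.2 CPM, with a muscle sum of 29060 CPM.

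**Figure D5:**
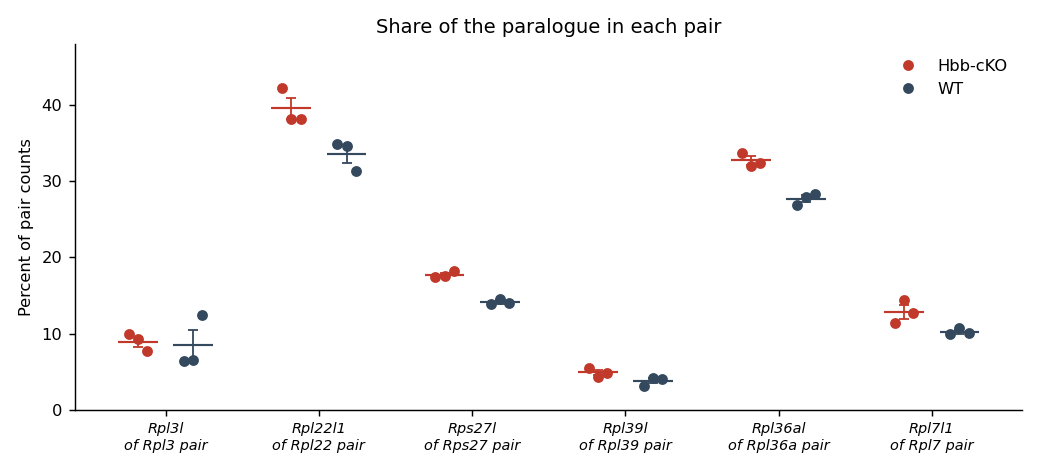
Share of the paralogue in the counts of each paralogue pair (percent, copies summed) in the 3 *Hbb*-cKO libraries (red) and the 3 WT libraries (blue-grey); lines and bars, mean ± s.e.m. The groups do not overlap in 5 pairs, for example *Rps27l* at 17.4% to 18.2% in *Hbb*-cKO and 13.8% to 14.6% in WT, and overlap for *Rpl3l*.

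Of the 8 members named as pseudogenes or retrogenes, *Rpl36-ps4* and *Rpl9-ps1* had 0 counts in all libraries and the other 6 had negative log2 fold changes, none called in edgeR. *Rps27rt* stood at -0.48 ± 0.19 (adjusted p = 0.437). *Rps18-ps6* had 2690, 3153 and 0 counts in *Hbb*-cKO and 3437, 4248 and 3032 counts in WT. Its log2 fold change was -1.04 ± 1.51 (adjusted p = 0.878), with the 0 in *Hbb*-cKO replicate 3, a library with 3705 counts on *Rps18* itself and 4740 on the sister copy *Rps18-ps5*. *Rps19bp1*, a protein that binds RPS19 and is no ribosomal protein, had 23.2, 18.7 and 21.5 CPM in *Hbb*-cKO and 18.5, 26.0 and 16.5 CPM in WT, with overlap (0.05 ± 0.19, adjusted p = 0.956). *Rps23rg1*, a retrogene of *Rps23* with a product of its own, had 10.7, 10.8 and 10.9 CPM in *Hbb*-cKO and 16.2, 15.1 and 12.5 CPM in WT, without overlap (-0.43 ± 0.15, adjusted p = 0.366).

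Across libraries the core genes nearly kept their proportions. The large-subunit genes made up 60.35%, 60.5% and 60.67% of the summed core level in *Hbb*-cKO and 59.43%, 60.23% and 60.3% in WT. The groups did not overlap, and their means differed by 0.52 percentage points. The log2 level of a core gene varied over the 6 libraries with a median SD of 0.27 with copies summed, and relative to the median of the core genes in the same library with a median SD of 0.065. This second SD was under 0.1 in 61 of 77 genes. It was highest for *Rpl29*, at 0.566, followed by *Rpl12* at 0.201. The core genes lie on 19 chromosomes, and the 4 on the X chromosome, *Rpl10*, *Rpl36a*, *Rpl39* and *Rps4x*, had log2 fold changes of -0.25 to -0.37 with copies summed, inside the range of the others.

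A feature that many of these mRNAs are known to share is the TOP tract, and RefSeq start sites (GRCm38.p6) were read for it, as a C at the annotated start followed by at least 4 further bases that are C or T. Of the 77 core genes 57 matched the promoter table and 13 of them (22.8%) held such a tract, against 3.01% of all 27025 genes in the table and 0 of 7 paralogues. Windows of 10 bases before and 20 bases from the start are shown for some genes named above, with the tract in capitals. The core genes shown were picked among those with a tract, while 44 of the 57 had none. *Rpl36a*, a core gene not shown, had none, and neither had its paralogue *Rpl36al*. In *Rpl22l1* the annotated start is a G, directly followed by a run of C and T. The core genes shown are *Rpl38* (chr11:114668570-114668599, plus strand), *Rps6* (chr4:86857348-86857377, minus strand) and *Rps27* (chr3:90213629-90213658, minus strand). The paralogues shown, *Rps27l* (chr9:66946076-66946105, plus strand) and *Rpl22l1* (chr3:28805498-28805527, plus strand), have no tract at the annotated start.
Rpl38: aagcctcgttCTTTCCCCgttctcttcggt
Rps6: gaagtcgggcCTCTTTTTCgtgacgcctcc
Rps27: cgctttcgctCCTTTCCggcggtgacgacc
Rps27l: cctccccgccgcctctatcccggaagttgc
Rpl22l1: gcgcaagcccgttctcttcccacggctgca
With copies summed the median log2 fold change was -0.35 in the 13 core genes with a tract and -0.31 in the 44 without. Both ranges lay below 0, but *Rpl29*, the core gene with a positive value (0.22), was not among the 57 matched. Annotated starts can differ from the true start by some bases, so a gene without a match may still make an mRNA with a tract.

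Other genes of ribosome production were read from lists. Of 23 other genes listed as known TOP mRNAs, such as the elongation factors *Eef1a1*, *Eef1b2* and *Eef2*, 16 were in the promoter table and 4 of these held a tract at the annotated start. Of the 23 genes 18 had a negative log2 fold change, with a median of -0.20, and 0 were called in edgeR or DESeq2. *Eef2*, which moves the ribosome along the mRNA and was picked after its values were seen, had 2025, 2021 and 1924 CPM in *Hbb*-cKO and 2466, 2606 and 2564 CPM in WT, without overlap and with WT replicate 3 as high as the other WT libraries (-0.35 ± 0.13, adjusted p = 0.395 in edgeR). *Fau*, a ribosomal protein made as a fusion and not a member by name, had -0.42 ± 0.17 (adjusted p = 0.452), also without overlap. The 25 genes of ribosome biogenesis in the nucleolus had a median of -0.02, 13 negative and 12 positive, and the 10 regulators, among them *Mtor*, *Larp1* and *Myc*, a median of -0.01, none of either list called by edgeR or DESeq2. The mitochondrial ribosomal proteins, which build a separate ribosome, had a median of -0.03 with 41 negative and 36 positive of 77 tested, 0 called in edgeR and 1 in DESeq2.

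Markers of other cells moved between the same libraries. All 6 markers of proliferating cells (*Mki67*, *Top2a*, *Ccnb1*, *Cdk1*, *Birc5* and *Plk1*) were higher in every *Hbb*-cKO library than in every WT library (8.7% of all genes tested were), with a summed level of 334 to 387 CPM in *Hbb*-cKO and 190 to 233 CPM in WT; edgeR called 0 and DESeq2 4. Of the erythroid markers, 6 of 7 were tested and 4 had negative fold changes, with a summed level of 5704 to 7815 CPM in *Hbb*-cKO and 8619 to 23830 CPM in WT, mostly *Hba-a1* and *Hbb-bs*; edgeR called 0 and DESeq2 3. All 8 markers of the neutrophil lineage had positive fold changes, with a summed level of 127, 28.4 and 108 CPM in *Hbb*-cKO and 40.2, 27.7 and 19.9 CPM in WT. *Hbb*-cKO replicate 2 thus lay inside the WT range. Of the 8 markers 7 had an unadjusted p under 0.05 in edgeR (4.89% of all genes tested did so as higher). In 1 of the 8 every *Hbb*-cKO library lay above every WT library, and edgeR called 0 and DESeq2 2. Of the skeletal muscle markers 8 of 9 had negative fold changes, 0 called by either tool, with a summed level of 23490 to 32200 CPM in *Hbb*-cKO and 29060 to 46580 CPM in WT. The erythroid markers summed to 23830 and 17610 CPM in WT replicates 1 and 2, a sum of mostly globin mRNA that includes the targeted *Hbb-bs*. These libraries were also highest in the share of the ribosomal protein genes and held no Y-linked counts. Not every erythroid marker followed the sum: *Slc4a1* had 28.8, 11.9 and 28.2 CPM in *Hbb*-cKO and 30.8, 13.8 and 11.8 CPM in WT. *Slc4a1* and *Epb42* were the markers with positive fold changes (0.29 ± 0.47 and 0.57 ± 0.60). The part of these cells, and of the sex of the mice, in the level of the ribosomal protein genes was not tested.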

How the data were processed

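The authors deposited 1 table of whole-number counts per gene, not normalised. TruSeq RNA libraries of knee cartilage were sequenced on an Illumina HiSeq. For upstream steps the notes of the submitters list HISAT2 2.1.0 and StringTie, beside fastp 0.19.5, CASAVA 1.8 and edgeR. The sources used here do not give settings, strand or the treatment of multiply mapping reads. Of the gene identifiers shared with GENCODE M21 (GRCm38), 99.4% had the same position.

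Counts were scaled by TMM, filtered (minimum count 10 and total 15, by group) and tested in edgeR 4.0.16 on R 4.3.3 (robust quasi-likelihood fit, Benjamini-Hochberg over all genes, threshold 0.05), with DESeq2 1.42.0 as an alternative. SE is that of the fitted log2 fold change. All 91 members with counts passed the filter. Copies were found by shared 31-base windows of GENCODE M21 transcripts, and the fit with copies summed was added after seeing the data. The other alternatives were RLE factors, TMM factors without ribosomal protein or globin genes, 2 other filters, a replicate block, a threshold of 0.1 and leaving out each library. Tests were checked on simulated counts. The members and lists were chosen with earlier results of these data known. Named genes were a fixed list of members and paralogue pairs, the 3 highest and 3 lowest fold changes, members past the threshold and the 5 highest levels per length. *Rps4l*, in that list, is no protein-coding row of the table. Values of a few single genes are not reported here.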

Additional observations from a re-analysis of the deposited data

How the results depend on the processing

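The number of members called higher was 0 under every alternative run. The number called lower was 0 with edgeR and became 1 with DESeq2, with no filter and at a threshold of 0.1 (*Rpl38* each time), and 0 to 1 when a library was left out. For all genes the 18 calls became 249 with DESeq2, 60 with no filter and 41 at a threshold of 0.1, and ranged from 1 (without WT replicate 1) to 39 (without WT replicate 3) when a library was left out. The cause of these changes was not tested. The median log2 fold change of the members stayed between -0.28 and -0.31 under other factors, filters, DESeq2 and with copies summed, and ranged from -0.08 (without WT replicate 2) to -0.40 (without WT replicate 3). The difference in the summed share of counts was -18.7%, -20.1% without globin and mitochondrially encoded genes in the total, and -8.72% to -25.6% when a library was left out.

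Same-numbered libraries did not deviate together (correlations of -0.03, -0.11 and -0.03), which gave no sign that the numbers pair the samples. With 3 libraries a group this cannot exclude a pairing. With a replicate block 4 genes and 0 members were called and the median of the members was -0.27. Of 474 values of named genes under an alternative, 462 kept their direction or stayed within 1 SE and on their side of the threshold. The standard error of the log2 fold change had a median of 0.18 over the core genes at 3 libraries a group.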
